A study of Mus musculus with 10 samples.

Results

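Homologous recombination, the Fanconi pathway and mismatch repair keep replicating DNA intact, and 31 genes of these pathways were followed here through 2 experiments in mouse embryonic stem cells. The genes were listed by symbol, and a row of the gene table was taken for a gene where the row's comma-separated name held that symbol. Of the 31 genes, 30 had a row, out of 49624 row names in the table. They were 18 genes of homologous recombination, 10 of the Fanconi pathway and 2 of mismatch repair, and Fanca is not analysed here. All 30 passed the filter on low values, a normalised count of at least 10 in at least 2 libraries. Rad54b shared its row with Fsbp, so its values are sums over both genes, and 1 mismatch repair gene also had a row merged with other genes. Strand use in counting is not given in the sources used here, and 15 of the 30 genes overlap an exon of a gene on the other strand in the GENCODE annotation, among them Fancd2 with Fancd2os, Fanci with Polg, Fancl with Vrk2, Mre11a with Ankrd49 and Rad54l with Lrrc41.

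RNA of 10 libraries was sequenced. KO and WT cells were of the strain C57BL/6J with Mof fl/fl alleles and Cre-ER TM, a tamoxifen-driven Cre that can delete floxed Mof, and the protocol gives 3 days with 4-hydroxytamoxifen at 100 nM or with ethanol. Mof is the histone acetyltransferase gene Kat8. ETO cells were of the line E14tg2a with etomoxir, an inhibitor of the carnitine palmitoyltransferases that admit long-chain fatty acids to mitochondria, for 4 days. Released cells had the same treatment and then 4 days without etomoxir, and Control cells had water in place of etomoxir. All cells grew in 2i/LIF medium, which holds the MEK inhibitor PD0325901 (1 µM), the GSK3 inhibitor CHIR99021 (3 µM) and LIF (1000 U/ml). The dose of etomoxir is not given in the sources used here. Each group had 2 libraries, which the labels name biological duplicates without saying whether they came from separate cultures, and p-values therefore reflect a spread that may be technical.

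Library totals ran between 10562067 and 13326172 normalised counts, and the estimated number of reads behind them between 9783324 and 16778183. Kat8 had 222 and 205 normalised counts in KO, against 433 and 357 in WT, a log2 change of -0.88 ± 0.11 (standard error, adjusted p = 3.64e-05). It had 339 and 395 in Released, 566 and 530 in ETO, and 372 and 383 in Control. The embryonic stem cell marker Pou5f1 had between 525 and 1048 FPKM (a level scaled by gene length and library size) in the 10 libraries. All 12 stem cell markers on the list were called lower in ETO than in Control, with summed levels of 2194 and 2196 FPKM in ETO, against 3468 and 3587 FPKM in Control. Summed trophectoderm markers had 639 and 733 FPKM in ETO, against 37.9 and 39.5 FPKM in Control, with 6 of the 7 tested called higher, among them the keratins Krt18, Krt8 and Krt7, and 1 lower. Of the 10 trophectoderm markers, 3 were below 1 FPKM in every library. Summed primitive endoderm markers had 32.1 and 32.3 FPKM in ETO, against 25.6 and 23.6 FPKM in Control, and 4 of the 8 tested were called higher and 1 lower. These markers moved with the same libraries as the repair genes, and their part in the results below was not tested. Between the 2 libraries of a group, the median gene of the 30 differed by 0.10 on the log2 scale in KO, 0.15 in WT, 0.07 in Released, 0.09 in ETO and 0.05 in Control. In RNA of whole cultures, fewer cells of a type and less RNA per cell cannot be told apart.

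As background, homologous recombination copies a broken or stalled DNA strand from its sister. The break is resected by the MRE11-RAD50-NBN complex with RBBP8 and EXO1, and BRCA1 with BARD1 and PALB2 bring BRCA2, which prepares the resected strand to invade its template. The Fanconi core complex marks FANCD2 and FANCI at crosslinked DNA, which lets nucleases and recombination take over, and mismatch repair removes replication errors that escape the polymerase. Much of this machinery is made in S and G2 phase, and embryonic stem cells, which divide fast and spend much of their cycle in S phase, carry high levels of it.

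The level of each gene per length was compared in FPKM. Among the recombination and Fanconi genes, Mre11a, the nuclease of the MRE11-RAD50-NBN complex, stood high in all 5 groups, at 116 ± 24.2 FPKM in KO, 109 ± 16.0 in WT, 71.4 ± 11.0 in Released, 62.5 ± 9.54 in ETO and 81.2 ± 6.21 in Control (SD, n = 2 each). Exo1, an exonuclease of resection, had 76.5 ± 10.5 FPKM in KO, 60.5 ± 7.45 in WT, 97.2 ± 7.06 in Released, 50.2 ± 2.63 in ETO and 102 ± 6.57 in Control. The median gene stood at 20.3 FPKM in KO, 20.4 in WT, 18.3 in Released, 12.9 in ETO and 20.1 in Control. The helicase gene Brip1 and the Fanconi core gene Fancf were among the lowest. Brip1 had 2.91 ± 0.78 FPKM in KO, 2.88 ± 0.94 in WT, 3.54 ± 0.23 in Released, 1.14 ± 0.00055 in ETO and 3.77 ± 0.26 in Control. Fancf had 2.92 ± 0.32 FPKM in KO and 2.04 ± 0.10 in WT, and 1.70 ± 0.32 in Released, 1.63 ± 0.60 in ETO and 1.97 ± 0.15 in Control (SD, n = 2 each). Neighbours in the middle of the order lay within their replicate spread of each other, as Rad51d (14.4 ± 1.35 FPKM) and Xrcc3 (13.9 ± 1.01 FPKM) did in KO.

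**Figure D1:**
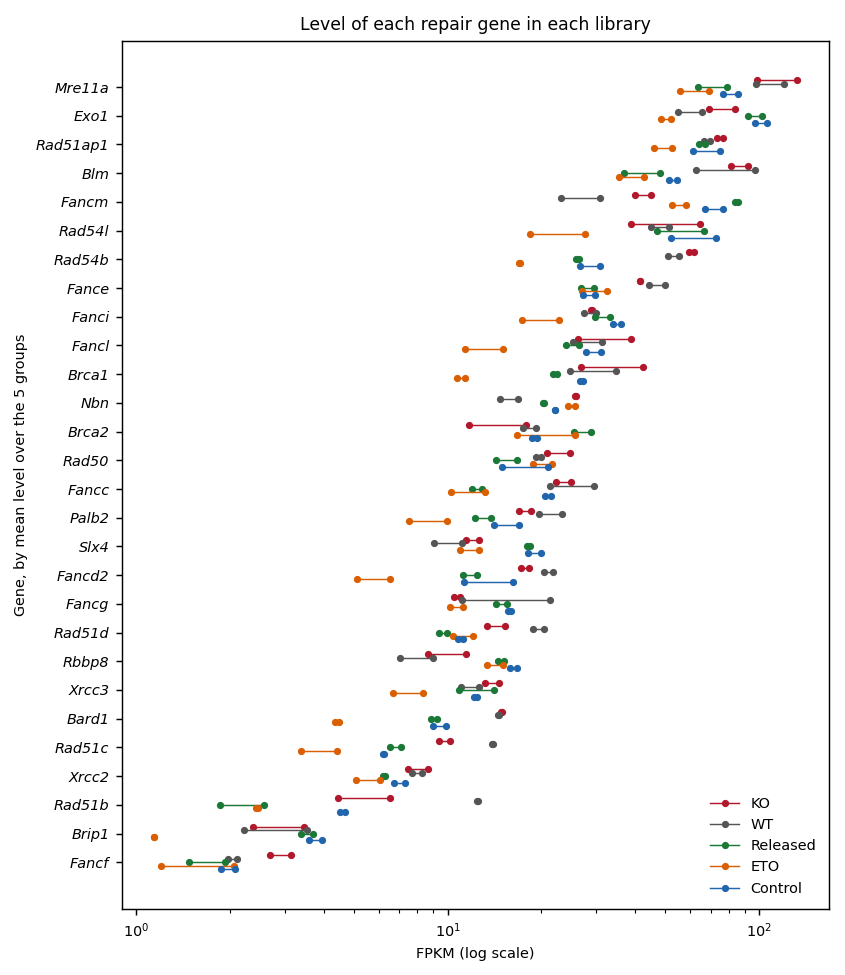
Level of each of 28 recombination and Fanconi genes in each library, in FPKM on a log axis, with genes ordered by their mean over the 5 groups. A point is a library and a line joins the 2 libraries of a group; Mre11a is at the top, Fancf at the bottom, and the ETO points lie to the left for most genes.

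Etomoxir was compared with water to ask how these genes stood after 4 days of treatment. In ETO, 22 of the 30 genes fell and 1 rose (limma, adjusted p under 0.05), where 34% of the 16056 tested genes fell and 26.8% rose. The median change of the 30 was -0.56 on the log2 scale, against -0.09 over all tested genes. The falls covered all 3 pathways: 13 of the 18 recombination genes, 7 of the 10 Fanconi genes and both mismatch repair genes. Of the 22 falls, 14 were called under every alternative fitted. Both ETO libraries lay below both Control libraries for 25 of the 30 genes and above for 3, which was not counted over all genes. The count was 18 on a scale of equal total signal, with 3 rises, and that scale moved the median of all genes up by 0.17 and the rising share of all calls to 57.2%, against 44.1% as deposited.

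**Figure D2:**
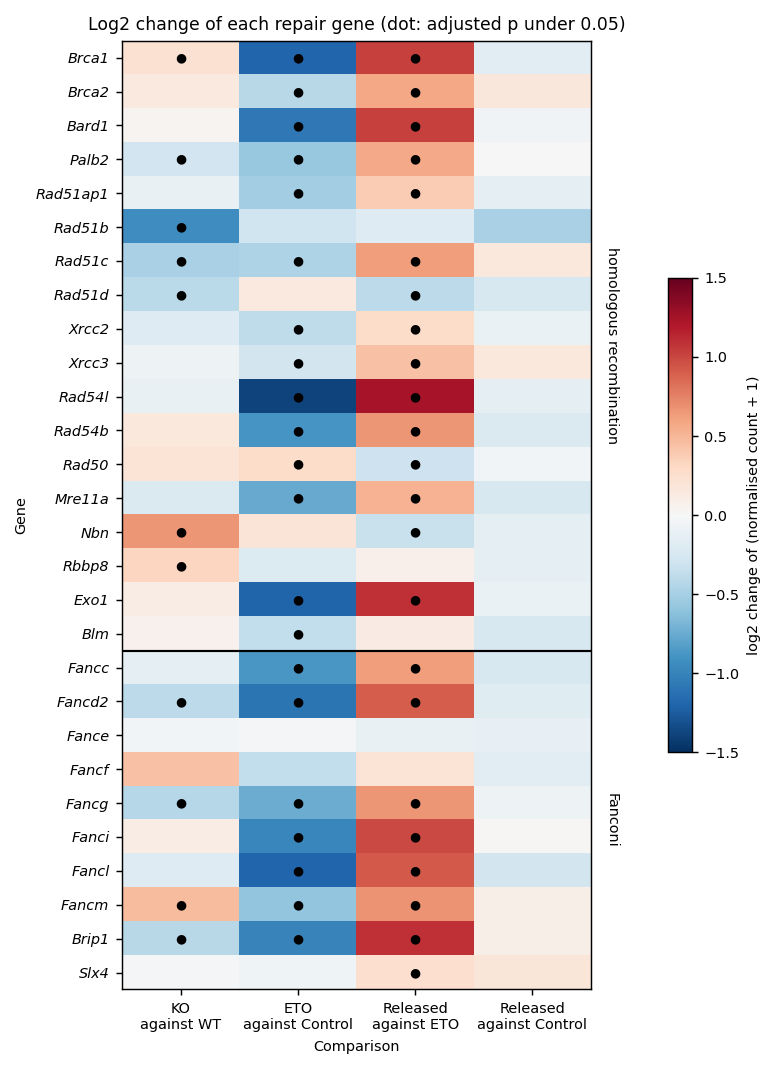
Log2 change of each of 28 recombination and Fanconi genes (rows, by pathway) in 4 comparisons (columns), blue for lower and red for higher, with a dot where the adjusted p was under 0.05. The ETO against Control column is mostly blue with 13 recombination and 7 Fanconi falls, Released against ETO is mostly red with 12 and 8 rises, Released against Control has no dot, and KO against WT is mixed with 4 rises and 7 falls.

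The largest fall was that of Rad54l (chr4:116094261-116123700, minus strand, GRCm38), whose product is a DNA translocase that helps the invading strand pair with its template. Rad54l had 442 and 489 normalised counts in ETO, against 1219 and 1219 in Control, a log2 change of -1.39 ± 0.07 (standard error, adjusted p = 3.82e-10). Both ETO libraries were far below both Control libraries, and the group mean was 38.2% of that of Control. Its relative Rad54b, in the row shared with Fsbp, had 471 and 421 normalised counts in ETO, against 857 and 784 in Control (log2 change -0.88). The ETO libraries again lay below both Control libraries.

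The promoters below belong to Rad54l, Brca1 and Fancl, the 3 genes with the largest falls among those with an entry of their own in the RefSeq promoter table (GRCm38.p6), followed by Bard1 and Fance, which were chosen after their values were seen. Bard1 was the only gene of the set with both an E2F motif and a CHR motif, and Fance had the change nearest to 0 in ETO. Each run is 250 bases before to 50 bases after the first listed start, read 5′ to 3′ on the gene's strand. They are Rad54l at chr4:116123641-116123940 on the minus strand, Brca1 at chr11:101551906-101552205 on the minus strand, Fancl at chr11:26386834-26387133 on the plus strand, Bard1 at chr1:71102923-71103222 on the minus strand and Fance at chr17:28313280-28313579 on the plus strand. Capitals mark matches, on either strand, to the E2F motifs TTTCCCGC, TTTCGCGC, TTTGCCGC and TTTGGCGC, to the CHR motif TTTGAA, to the NF-Y motif CCAAT and to the NRF1 core CGCATGCG.
Rad54l: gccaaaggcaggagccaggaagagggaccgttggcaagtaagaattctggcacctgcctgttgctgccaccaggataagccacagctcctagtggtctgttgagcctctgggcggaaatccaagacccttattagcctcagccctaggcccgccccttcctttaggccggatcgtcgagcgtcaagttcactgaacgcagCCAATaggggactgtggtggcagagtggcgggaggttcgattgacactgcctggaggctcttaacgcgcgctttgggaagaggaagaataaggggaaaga
Brca1: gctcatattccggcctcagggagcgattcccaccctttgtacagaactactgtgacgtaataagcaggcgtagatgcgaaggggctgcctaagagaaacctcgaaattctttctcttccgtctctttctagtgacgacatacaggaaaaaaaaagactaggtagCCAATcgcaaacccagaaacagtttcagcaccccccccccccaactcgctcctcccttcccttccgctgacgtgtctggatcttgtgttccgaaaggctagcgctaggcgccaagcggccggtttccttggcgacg
Fancl: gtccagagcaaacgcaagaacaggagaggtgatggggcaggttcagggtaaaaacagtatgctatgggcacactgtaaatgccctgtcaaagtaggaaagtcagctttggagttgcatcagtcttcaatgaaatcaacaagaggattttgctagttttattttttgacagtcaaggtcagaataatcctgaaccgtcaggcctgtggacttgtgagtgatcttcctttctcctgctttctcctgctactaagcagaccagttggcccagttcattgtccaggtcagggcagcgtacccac
Bard1: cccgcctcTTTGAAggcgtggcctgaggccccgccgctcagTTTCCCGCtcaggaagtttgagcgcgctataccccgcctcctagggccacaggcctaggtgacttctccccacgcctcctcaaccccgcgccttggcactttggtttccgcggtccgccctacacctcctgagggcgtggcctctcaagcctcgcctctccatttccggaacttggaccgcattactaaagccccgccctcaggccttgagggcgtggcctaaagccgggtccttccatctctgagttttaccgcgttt
Fance: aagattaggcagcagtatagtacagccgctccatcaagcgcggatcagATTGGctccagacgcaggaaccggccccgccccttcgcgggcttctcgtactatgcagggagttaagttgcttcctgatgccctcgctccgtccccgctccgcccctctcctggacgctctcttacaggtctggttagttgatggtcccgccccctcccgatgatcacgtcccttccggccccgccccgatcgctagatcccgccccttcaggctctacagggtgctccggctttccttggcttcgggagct

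Rad54l and Brca1 each showed a CCAAT match, Fancl showed none of these motifs, and the Fance promoter, from a gene that was not called, showed a CCAAT match as well. Of the 30 genes, 22 had a promoter entry, and Rad51d, Xrcc2, Rad54b, Rad50, Nbn, Rbbp8, Exo1 and Fancd2 had none. An E2F motif was in 5 of the 22 promoters (22.7%), among them those of Bard1, Fancg, Brca2 and Rad51c, against 2.32% of the 27025 genes in the table. CCAAT was in 72.7% of the 22, against 37.9% of all genes, and the GC box GGGCGG, which can overlap an E2F match and was not capitalised, in 63.6% against 35.9%. CCAAT was in 12 of the 18 that fell in ETO and in 4 of the 4 others. The GC box was in 12 and 2 of these, and an E2F motif in 5 and 0. The shares of all genes were taken without a filter on expression. The CHR motif was in 1 of the 22 (4.55%), against 18.1% of all genes, and the NRF1 core in 1, that of Fancm, against 1.91%. The median GC content was 58.2% in the 22 promoters and 52.7% in all. These matches are descriptions of short windows and carry no test.

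Among the genes that start recombination, Brca1 and Bard1, whose products form a ubiquitin ligase that promotes resection, fell together. Brca1 had 809 and 903 normalised counts in ETO, against 1942 and 1965 in Control (log2 change -1.19 ± 0.08, standard error, adjusted p = 5.12e-09). Bard1 had 366 and 355 in ETO, against 795 and 728 in Control (-1.08 ± 0.08, adjusted p = 7.93e-09). For both genes the ETO libraries were below all Control libraries. Palb2, the link between BRCA1 and BRCA2, fell less, with 352 and 346 in ETO, against 522 and 513 in Control (-0.57). Brca2, which acts at strand invasion, had 1022 and 1376 in ETO, against 1560 and 1593 in Control (-0.41), and its ETO libraries were far apart. The call for Brca2 was lost without ETO replicate 1 and on the scale of equal total signal, and in the FPKM table its change was 0.12.

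The resection genes moved in both directions. Exo1, a 5′ to 3′ exonuclease that also serves mismatch repair, had 571 and 588 normalised counts in ETO, against 1319 and 1341 in Control (log2 change -1.20 ± 0.08, standard error, adjusted p = 3.87e-09). Mre11a, the nuclease of the MRE11-RAD50-NBN complex, had 755 and 761 in ETO, against 1296 and 1263 in Control (-0.75), with no overlap between the groups. The other 2 subunits did not fall. Rad50 rose, with 1115 and 1188 in ETO, against 973 and 936 in Control (0.27 ± 0.08, adjusted p = 0.00817). Nbn had 804 and 797 in ETO, against 738 and 668 in Control (0.19, adjusted p = 0.0793), and Rbbp8, the activator of the nuclease, had a change of -0.21 (adjusted p = 0.158). The call for Rad50 was lost without ETO replicate 2, without Control replicate 2 and in the FPKM table, where its change was not past the threshold (adjusted p = 0.443). The call for Mre11a was also lost in the FPKM table (-0.38, adjusted p = 0.15). Nbn was called as rising with median-of-ratios, total signal or upper-quartile factors. In a fit per experiment Nbn was called as rising and Rbbp8 as falling.

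Rad51b, Rad51c, Rad51d, Xrcc2 and Xrcc3 are related genes whose products work in complexes at strand invasion. In normalised counts they changed by at most 0.46 on the log2 scale. Rad51c fell, with 96.9 and 110 normalised counts in ETO, against 157 and 129 in Control (log2 change -0.46, adjusted p = 0.00932). Xrcc2 (-0.38) and Xrcc3 (-0.28) also fell. Rad51b (-0.29, adjusted p = 0.153) and Rad51d (0.15, adjusted p = 0.232) were not called. In the FPKM table, however, Rad51b was called as falling (-0.89), and on the scale of equal total signal Rad51d was called as rising. The calls for Rad51c, Xrcc2 and Xrcc3 were lost without ETO replicate 1 and on the scale of equal total signal. That for Xrcc2 was also lost in the FPKM table, and that for Rad51c also without Control replicate 1. That for Xrcc3 was lost without any 1 of the ETO and Control libraries and with median-of-ratios factors as well. Rad51ap1, which aids strand invasion, fell by 0.52 on the log2 scale, and Blm, the helicase that resolves joint molecules, fell by 0.37, a call lost in the FPKM table (adjusted p = 0.15).

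**Figure D3:**
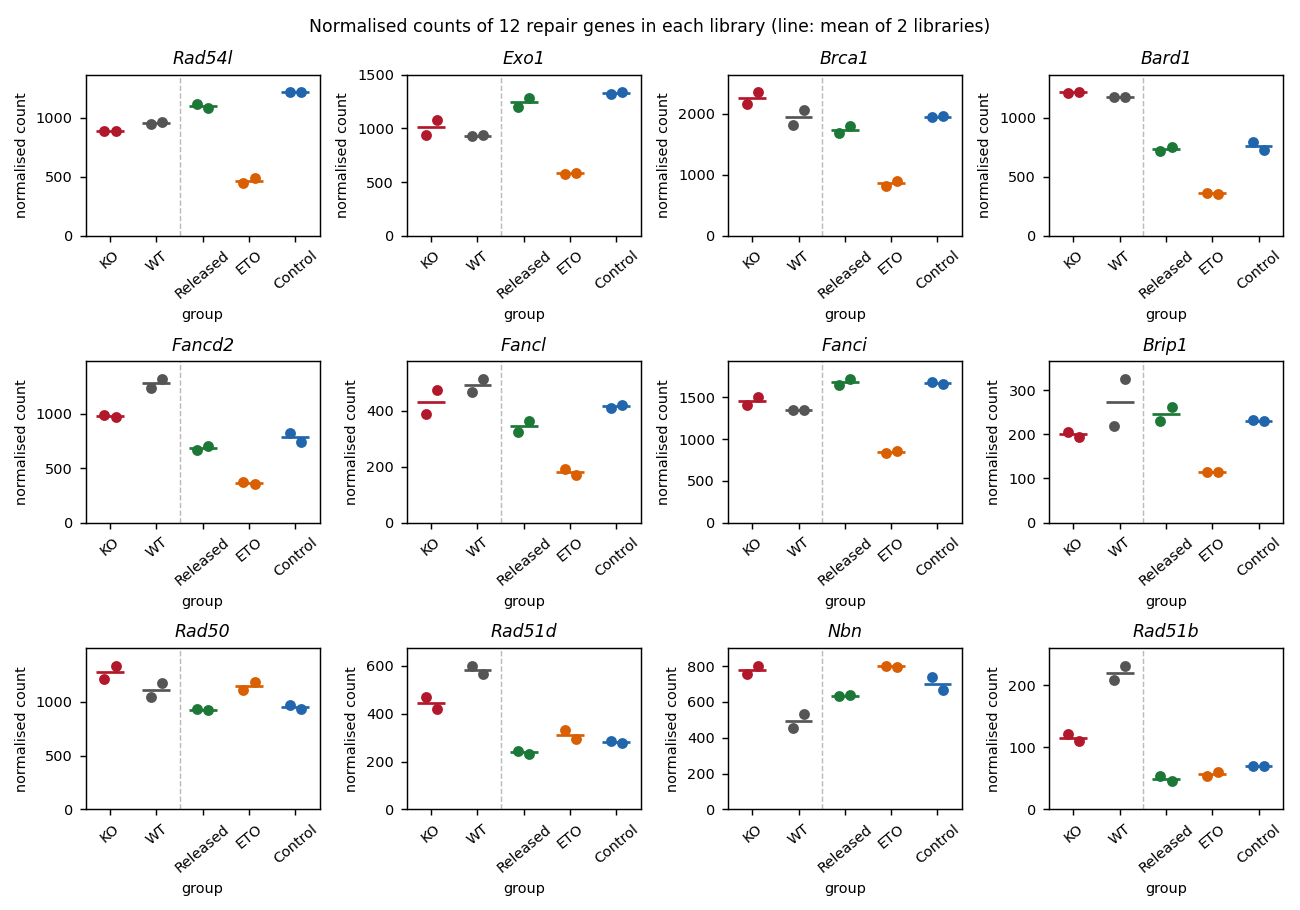
Normalised counts of 12 genes in each library, from 0, with KO and WT left of the dashed line and Released, ETO and Control right of it. A point is a library and a bar is the mean of 2; for Rad54l, Exo1, Brca1, Bard1, Fancd2, Fancl, Fanci and Brip1 both ETO points lie below both Released and both Control points, and Rad50 has its ETO points above them.

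In the Fanconi pathway the ubiquitylated pair and the ligase were among the genes that fell. Fancd2 had 375 and 359 normalised counts in ETO, against 826 and 742 in Control (log2 change -1.09 ± 0.08, standard error, adjusted p = 1.41e-08). Its partner Fanci had 838 and 862 in ETO, against 1684 and 1657 in Control (-0.97 ± 0.06, adjusted p = 4.8e-09). Fancl, the ligase of the core complex, had 193 and 171 in ETO, against 411 and 422 in Control (-1.19 ± 0.12, adjusted p = 3.37e-07). For all 3 genes the ETO libraries lay below the Control libraries without overlap. The core genes Fancc (-0.87) and Fancg (-0.74) fell as well, while Fance (-0.01, adjusted p = 0.929) and Fancf (-0.36, adjusted p = 0.268) were not called. Fancf was measured at 26.7 and 48.2 normalised counts in ETO, against 47.3 and 45.7 in Control, so its groups overlapped.

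Fancm, a translocase that recruits the core complex, had 1572 and 1719 normalised counts in ETO, against 2523 and 2439 in Control (log2 change -0.59, adjusted p = 2.67e-05). Brip1, a helicase that binds BRCA1, had 114.7 and 114.6 in ETO, against 231 and 229 in Control (-1.0 ± 0.16, standard error, adjusted p = 5.11e-05). Both lay below Control in each library. Slx4, the scaffold of the crosslink nucleases, had 679 and 720 in ETO, against 736 and 731 in Control (-0.07, adjusted p = 0.467). The calls for Fancm and Fancg were lost in the FPKM table. Slx4 was called as falling there (-0.68), with 11.0 and 12.7 FPKM in ETO, against 19.9 and 18.1 FPKM in Control.

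Release from etomoxir was compared first with ETO and then with Control, comparisons that share their libraries with the one above. Against ETO, 22 of the 30 genes rose and 3 fell, where 33.1% of all tested genes rose and 24.6% fell. The median change of the 30 was 0.57, against 0.10 over all genes. Both Released libraries lay above both ETO libraries for 23 of the 30 and below for 4, which was not counted over all genes. Rad54l had 1117 and 1079 normalised counts in Released, against 442 and 489 in ETO, a log2 change of 1.24 ± 0.07 (standard error, adjusted p = 1.82e-09). Exo1 had 1200 and 1284 in Released, against 571 and 588 in ETO (1.10 ± 0.08, adjusted p = 1.26e-08). Brca1 had 1680 and 1795 in Released, against 809 and 903 in ETO (1.02). In all of these the Released libraries were above both ETO libraries.

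Bard1 (log2 change 1.03), Brip1 (1.09) and Fanci (0.99) rose by similar amounts, and Fancd2 rose by 0.91 and Fancl by 0.92. Slx4, which was not called in ETO against Control in normalised counts, rose by 0.25 (adjusted p = 0.0118). Blm, which fell there, was not called as rising. Of the 22 rises, 15 were called under every alternative fitted. The call for Xrcc2 (0.28) was lost under 8 alternatives and that for Slx4 under 4. The 3 genes that fell were Rad51d, Rad50 and Nbn. Rad51d had 244 and 232 normalised counts in Released, against 331 and 294 in ETO (-0.39, adjusted p = 0.00449). Nbn had 631 and 640 in Released, against 804 and 797 in ETO (-0.33, adjusted p = 0.00476), and Rad50 had 935 and 923, against 1115 and 1188 (-0.31, adjusted p = 0.00369). These libraries did not overlap. Blm (0.13), Rad51b (-0.20), Rbbp8 (0.07), Fance (-0.11) and Fancf (0.21) were not called, and 16 genes rose and 1 fell in a fit of the FPKM values.

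Against Control, none of the 30 genes was called by limma in Released, where 7.03% of all tested genes rose and 5.51% fell. Without adjustment, 7 genes were lower and 1 was higher at a p under 0.05, and the lowest adjusted p was 0.0577, that of Blm. A fit of this experiment alone called 1 rise and 3 falls, and 2 falls were called without either WT replicate. The changes ran between -0.49 (Rad51b) and 0.18 (Slx4), with a median of -0.11, against 0.01 over all tested genes. Of the 30 changes, 22 were below 0. Both Released libraries lay below both Control libraries for 18 of the 30 and above for 4. Neither count was made over all genes. The group means in Released were between 71.0% and 114% of those in Control, with a median of 92.4%.

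The intervals set how far a remaining difference could go. For Rad54l the log2 change of Released over Control was -0.15 with a 95% interval of -0.31 to 0.01, from 1117 and 1079 normalised counts in Released, against 1219 and 1219 in Control. For Brca1 it was -0.17 (-0.34 to 0.00), for Fancl -0.28 (-0.52 to -0.03) and for Fanci 0.01 (-0.12 to 0.15). These intervals are not adjusted for the number of genes, and a p that misses the threshold does not show that the groups were alike. The widest interval was that of Fancf, -0.74 to 0.43, the gene with the lowest counts.

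KO cells were compared with WT cells of the same strain, which also carry floxed Mof as described above. Deletion of Mof and the treatment meant to drive it, 4-hydroxytamoxifen in place of ethanol, cannot be told apart here. In KO, 4 of the 30 genes rose and 7 fell, where 24.6% of all tested genes rose and 13.3% fell, so the share that rose (13.3%) was below that of all genes and the share that fell (23.3%) above it. The median change was -0.04, against 0.08 over all genes. Both KO libraries lay below both WT libraries for 12 of the 30 and above for 9, which was not counted over all genes. On the scale of equal total signal, which moved the median of all genes down by 0.16 and the rising share of all calls to 37%, against 64.8% as deposited, 2 genes rose and 12 fell. The mismatch repair genes were not called.

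Rad51b, Rad51c and Rad51d made up 3 of the 7 falls. Rad51b had 121 and 110 normalised counts in KO, against 209 and 232 in WT, a log2 change of -0.93 ± 0.17 (standard error, adjusted p = 0.00067). Rad51c had 250 and 230 in KO, against 334 and 340 in WT (-0.49 ± 0.14, adjusted p = 0.0121). Rad51d had 468 and 419 in KO, against 602 and 567 in WT (-0.40 ± 0.10, adjusted p = 0.0066). For all 3 the KO libraries lay below both WT libraries. Xrcc2 (-0.19, adjusted p = 0.168) and Xrcc3 (-0.07, adjusted p = 0.61) were not called. Rad51b was the 1 fall called under every alternative fitted, and the calls of Rad51c and Rad51d were lost without KO replicate 2, that of Rad51c also in the FPKM table.

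Palb2 had 535 and 515 normalised counts in KO, against 614 and 668 in WT (log2 change -0.29, adjusted p = 0.0144). Fancd2 had 985 and 970 in KO, against 1239 and 1324 in WT (-0.39, adjusted p = 0.00148), and Fancg had 209 and 221, against 312 and 269 (-0.43, adjusted p = 0.00753). These 3 genes had both KO libraries below both WT libraries. Brip1 had 206 and 194 in KO, against 219 and 326 in WT (-0.42, adjusted p = 0.0472), with WT libraries far apart. Its call was lost with no filter, in a fit per experiment, without trend or robust fitting, with the highest row of repeated names, and without any 1 library other than WT replicate 1, and its change was 0.03 in the FPKM table. The calls for Palb2, Fancd2 and Fancg were lost in the FPKM table, that for Palb2 also in a fit per experiment and without KO replicate 2 or WT replicate 2, and that for Fancg also without WT replicate 1. Without KO replicate 2, 3 of the 30 genes fell, and 2 fell in a fit of the FPKM values.

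Nbn showed the largest rise in KO, with 755 and 800 normalised counts, against 455 and 531 in WT (log2 change 0.66 ± 0.09, standard error, adjusted p = 5.04e-05). Fancm had 997 and 1062 in KO, against 664 and 821 in WT (0.48 ± 0.09, adjusted p = 0.000609). Both had KO libraries above all WT libraries and were called under every alternative fitted. The other 2 rises were near the threshold. Brca1 had 2158 and 2359 in KO, against 1808 and 2067 in WT (0.22, adjusted p = 0.0389), and Rbbp8 had 412 and 535 in KO, against 338 and 415 in WT (0.33, adjusted p = 0.0466), with overlapping groups for Rbbp8. Only 2 rises were left under each of 7 other settings (given in the closing section) and without KO replicate 2, WT replicate 1 or any 1 of the Released and Control libraries. Without WT replicate 2 there were 6.

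The 19 genes not called in KO changed by -0.22 to 0.44. Mre11a had 1282 and 1339 normalised counts in KO, against 1396 and 1674 in WT (log2 change -0.22, adjusted p = 0.0515), and Rad50 had 1211 and 1339 in KO, against 1042 and 1180 in WT (0.20, adjusted p = 0.0606). Both stood just outside the threshold. Fancf had 70.0 and 71.1 in KO, against 54.4 and 48.8 in WT (0.44, adjusted p = 0.225), groups that did not overlap. Rad54l (-0.11), Exo1 (0.11), Bard1 (0.05), Fanci (0.11) and Fancl (-0.19), among the largest falls in ETO, were not called in KO.

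**Figure D4:**
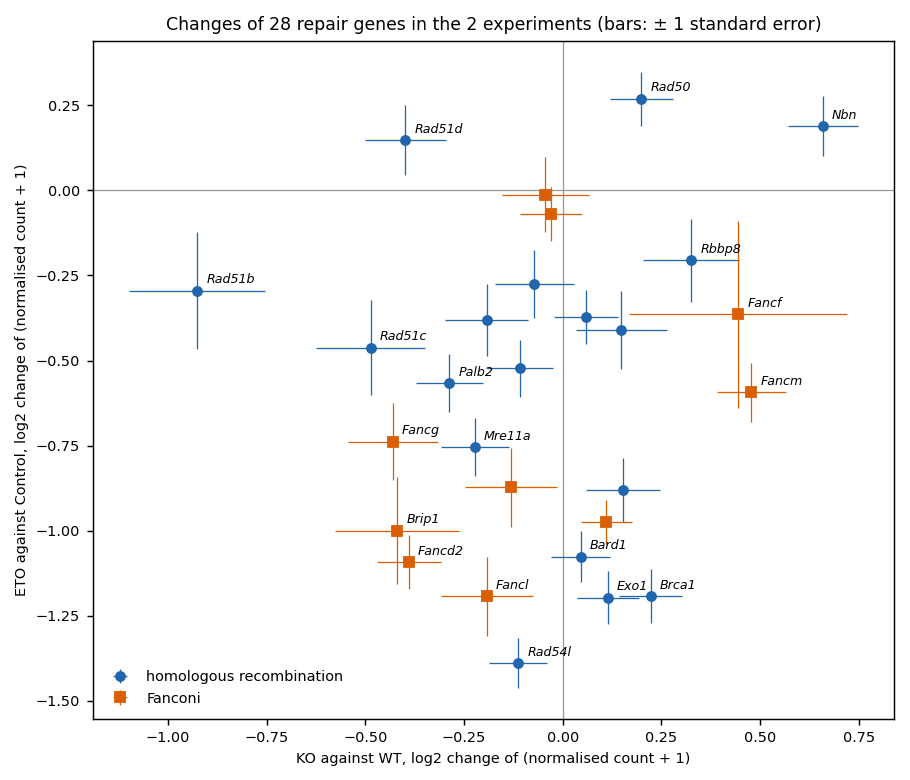
Log2 change in KO against WT (horizontal axis) and in ETO against Control (vertical axis) of 28 recombination and Fanconi genes, by pathway, with bars of 1 standard error. Most points lie below 0 on the vertical axis and scatter around 0 on the horizontal one, with Rad51b far to the left at -0.93 and Nbn far to the right at 0.66.

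KO against WT and ETO against Control share no library, so their changes could be set against each other. The 2 comparisons differ in strain or line, experiment, agent and days of treatment, and the parts of these in a difference cannot be told apart. Palb2, Rad51c, Fancd2, Fancg and Brip1 fell in both, which is 5 of the 7 genes that fell in KO (71.4%) and 5 of the 22 that fell in ETO (22.7%). Of all 16056 tested genes, 2142 fell in KO, 5455 in ETO and 809 in both, which is 37.8% of the KO falls and 14.8% of the ETO falls, and the difference from the repair genes was not tested. The call for Brip1 in KO was lost under 13 alternatives, and in the FPKM table its change turned to 0.03 and was not called. Brca1 and Fancm rose in KO and fell in ETO, and the call for Brca1 in KO was also lost under 13 alternatives. The difference between the changes, KO minus ETO, was called higher for 19 of the 30 genes and lower for 2, where 32.3% of all tested genes were higher and 22.2% lower. It was largest for Brca1, at 1.41, and Exo1, Rad54l and Bard1 followed. The genes with a lower difference were Rad51b (-0.63) and Rad51d (-0.55), which in normalised counts fell in KO and were not called in ETO. The lower difference of Rad51b was lost under 8 of 21 alternatives, among them no filter and the FPKM table. That of Rad51d was lost in the FPKM table. Rad51b was called as falling in ETO in the FPKM table (-0.89). On the scale of equal total signal 12 were higher and 4 lower. Without any 1 of KO replicate 2, ETO replicate 2 and the WT and Control libraries, 1 was lower.

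Levels in WT and in Control were not tested against each other, and strain, experiment and vehicle cannot be told apart there. Fancm had 664 and 821 normalised counts in WT and 2523 and 2439 in Control, and Rad51b had 209 and 232 in WT and 70.4 and 69.5 in Control. Mean levels in WT over those in Control ran from 0.299 for Fancm to 3.15 for Rad51b.

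The other genes of the same pathways, listed apart from these 30, were counted in the same fit. Of all tested genes, 34% fell and 26.8% rose in ETO. In ETO, 24 of 36 other recombination genes fell and 3 rose, with a median change of -0.53. Rtel1, a helicase that unwinds recombination intermediates, fell by 1.32 on the log2 scale and the nuclease-helicase Dna2 by 1.17. Of 20 other Fanconi genes, 13 fell and 2 rose: Usp1, which removes ubiquitin from FANCD2, fell by 0.83, while the polymerase Rev1 (0.79) and the nuclease gene Ercc4 (0.58) rose. Of 16 other mismatch repair and replication partner genes, 15 fell, with a median of -0.90, and the ligase gene Lig1 (-1.15), the clamp gene Pcna (-1.07) and the clamp loader Rfc5 (-1.09) were among them.

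**Figure D5:**
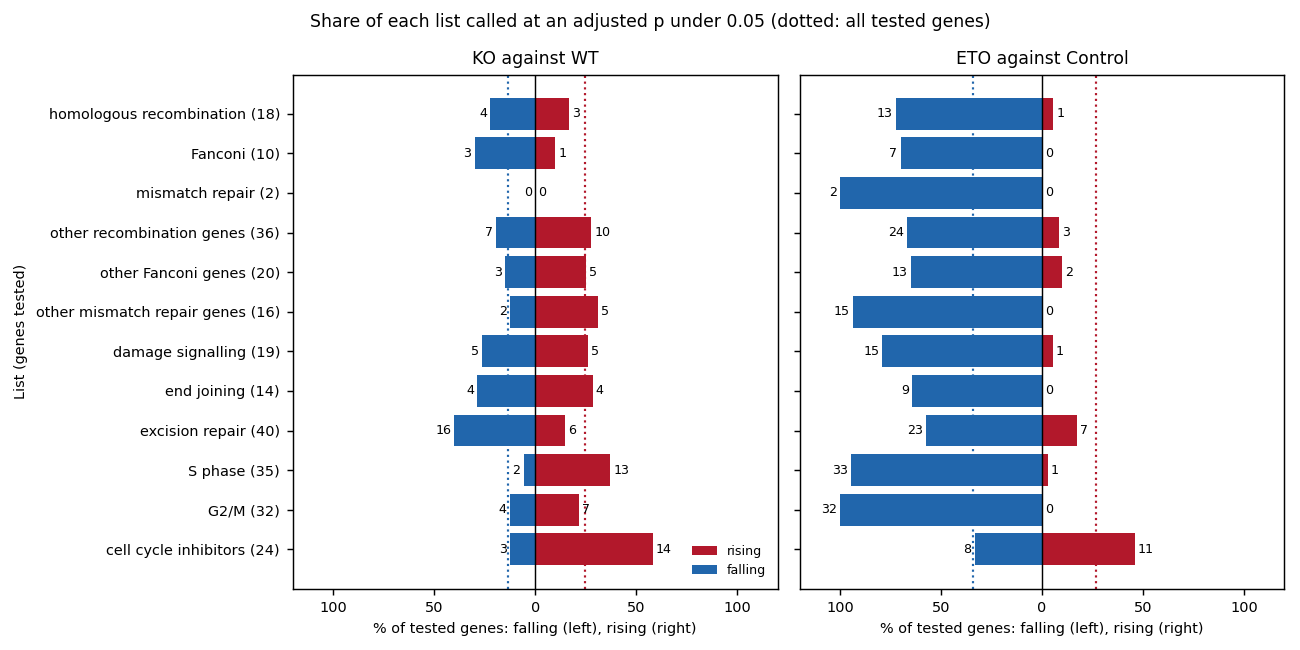
Share of the tested genes of each list called as rising (right, red) or falling (left, blue) in KO against WT and in ETO against Control, with counts at the bar ends and list sizes in brackets. Dotted lines give the share of all tested genes. In ETO the falling bars of all repair, S phase and G2/M lists pass the dotted line at 34%. In KO the excision repair list has 16 falls. The list labelled cell cycle inhibitors, which also holds repressors and damage response genes, has 14 rises in KO.

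The cell cycle lists moved with the repair genes in ETO. Of 35 S phase genes, 33 fell (median -0.90), and all 32 G2/M genes fell (median -1.28). Of 24 inhibitors, repressors and damage response genes of the cell cycle, 11 rose and 8 fell. Gadd45a at 2.92, Mdm2 at 1.74 and Btg2 at 1.69 were among the rises. E2f8, which represses E2F target genes, was among the falls at -1.98. Against ETO, 33 S phase genes and 32 G2/M genes rose in Released, where 33.1% of all tested genes rose. Their part in the changes of the repair genes was not tested. In KO, 13 S phase genes rose and 2 fell (median 0.09), and 7 G2/M genes rose and 4 fell (median -0.01). Of the 24 inhibitors, repressors and damage response genes, 14 rose and 3 fell in KO. Gadd45a (1.11), Mdm2 (0.75), Trp53 (0.56) and Ccng1 (0.53) were among these rises. Of all tested genes, 24.6% rose and 13.3% fell in KO.

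Other repair pathways also had more falls than rises in ETO, where 34% of all tested genes fell and 26.8% rose. Damage signalling had 15 falls and 1 rise among 19 genes, with the checkpoint kinase Chek1 at -1.27 and the fork protector Tipin also at -1.27. End joining had 9 falls among 14, with Xrcc6, a subunit of the end-binding KU complex, at -1.14. Excision repair had 23 falls and 7 rises among 40. In KO the excision repair list had 16 falls and 6 rises, among the falls Gtf2h4, a subunit of the repair and transcription factor TFIIH, at -1.11. Other recombination genes in KO had 10 rises and 7 falls among 36, with the helicase Recql4 at 0.66 and Wrn at -0.87. Other Fanconi genes had 5 rises and 3 falls among 20, with Usp1 at 0.67 and the nuclease Fan1 at -0.92. Of all tested genes, 24.6% rose and 13.3% fell in KO, and the shares of the other Fanconi genes were near these.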

How the data were processed

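RNA of 10 libraries was sequenced single-end after Illumina TruSeq library preparation, per the labels' protocols. TopHat2 2.1.1, SAMtools 1.5 and deepTools and the build mm10 are named per the submitters' processing notes, and the counting program is not given in the sources used here. A table headed as gene counts was deposited by the authors, and its values behave as a normalised signal: read counts divided by 1 factor per library, of which 82.4% to 85.4% came out as whole reads within a tolerance of 0.1, so no count model was fitted. A count of 3 reads, the limit that a count of 0 allows, was 2.07 to 4.04 normalised counts, and covers counting error only. A second deposited table holds FPKM, scaled by gene length and library size, per the file headers. Rows with the same name were summed (Rad51ap1, Blm and Fancm among the members).

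Log2(normalised count + 1) was taken for the 16056 rows that reached 10 in 2 or more libraries, a scale that shrinks the changes of weakly expressed genes. All 10 libraries entered a limma 3.58.1 model (R 4.3.3) with 1 mean per group, an intensity trend and robust moderation. Calls used two-sided tests and a Benjamini-Hochberg adjusted p under 0.05, with adjustment across every tested row of a comparison. Another 2 mitochondrial rows were left out, because they were at 0 in Released replicate 1 and high in Released replicate 2. The steps were tested on simulated data. Coordinates and promoters are from RefSeq GRCm38.p6 and exon overlaps from GENCODE, both of the build the notes name. The NRF1 motif was shortened to its core after the plan was made. Tables and figures were made with Python 3.11.15, numpy 2.4.6, pandas 2.3.3 and matplotlib 3.10.9.

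Some members and list genes are counted but not reported here by name. Values of each library were planned for up to 6 called members with the largest change in each direction and comparison, and further members and the genes of other lists were picked from those named by rule. The members, lists and rules were chosen with earlier results of these data known.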

Additional observations from a re-analysis of the deposited data

How the results depend on the processing

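Of the members' 3270 single values under up to 22 alternatives each, 3081 kept their side of the threshold. Of these, 75 changed sign and were called in neither fit. A call was lost in 138 and gained in 47, and 4 turned in direction with a call in at least 1 of the fits. Those 4 were Brip1 in KO against WT (0.031), Brca2 in ETO against Control (0.12) and in the difference (-0.46), all in the FPKM table, and Slx4 in the difference (-0.30) on total signal; the cause was not tested. Rises in KO against WT, 4 as reported, were 2 with no filter, with median-of-ratios, total signal or upper-quartile factors, in the FPKM table, in a fit per experiment and without trend or robust fitting, and 2 to 6 without 1 library. Falls in KO against WT, 7 as reported, were 12 on total signal and 2 in the FPKM table, and 3 to 7 without 1 library. Rises in ETO against Control, 1 as reported, were 2 with median-of-ratios or upper-quartile factors and in a fit per experiment, 3 on total signal, 0 in the FPKM table and 0 to 2 without 1 library. Falls in ETO against Control were 18 to 23, and rises in Released against ETO 16 to 23, under all alternatives. Falls in Released against ETO, 3 as reported, were 1 in the FPKM table. In Released against Control, with 0 as reported, a fit per experiment called 1 rise and 3 falls, and leaving out 1 library gave 0 to 2 falls. Higher differences, 19 as reported, were 12 on total signal. Lower differences, 2 as reported, were 1 with no filter, 4 on total signal, 0 in the FPKM table and 1 to 2 without 1 library. Among all genes, the FPKM table called 2747 in KO against WT (6086 as reported), 261 in Released against Control (2012) and 5748 in the difference (8754). In Released against Control a fit per experiment called 3713, a fit without trend or robust fitting 1171, and leaving out 1 library gave 773 to 2870. On total signal the rising share of all calls was 45.6% in Released against ETO (57.4% as deposited), 66.6% in Released against Control (56.1%) and 35.7% in the difference (59.3%); median-of-ratios factors gave 52.3% in KO against WT and 46.6% in the difference. Total signal moved the median of all genes by 0.17 in ETO against Control and by -0.33 in the difference.

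Same-numbered libraries showed little shared deviation (correlations of -0.02 to 0.08), a check that cannot show whether the numbers pair libraries. A replicate block gained 8 member calls and lost 0. It gave 2 rises in ETO against Control, 3 falls in Released against Control and 3110 genes called there. Fancf, the gene with the lowest counts, had the widest interval in Released against Control, and the part of depth in it was not tested.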
